A study of Mus musculus with 23 samples.

Results

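Chronic LDOPA was compared with acute LDOPA in DRD1A EGFP-L10a expressing medium spiny neurons (MSNs), the cells of the direct pathway of the striatum. The samples were taken by their titles and numbered 15 of the 23 arrays of the series. Of these, 8 came from mice given LDOPA throughout (chronic LDOPA) and 7 from mice given saline in its place (acute LDOPA). All mice carried EGFP-L10a, a green fluorescent protein fused to a ribosomal protein, under the DRD1A promoter of a bacterial artificial chromosome (line CP73). Their strain was C57BL/6J/Swiss-Webster, and they were 71 days old. Each had a unilateral 6-OHDA lesion of the medial forebrain bundle, made at 35 days, which removes dopamine from the striatum of that hemisphere. Chronic LDOPA was 2 doses a day for 21 days of LDOPA methyl ester (6 mg/kg) together with the decarboxylase inhibitor benserazide (15 mg/kg), and acute LDOPA was saline over the same days. On day 22 both groups received LDOPA with benserazide, and the lesioned striatum was taken 40 min later. The acute group is therefore a first exposure to LDOPA and not an untreated control, and no array of mice without LDOPA entered the comparison. The other 8 arrays came from the DRD2 line, with 4 after acute and 4 after chronic LDOPA, and were used for the estimate of the spread and for comparison of the lines.

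MSNs of the direct pathway carry the D1 dopamine receptor, which is coupled to a stimulatory G protein and to cyclic AMP, and they make the peptides dynorphin and substance P. After loss of dopamine the receptor responds more strongly, and repeated LDOPA is known to lead to abnormal involuntary movements in rodents. A rise of the dynorphin precursor in the striatum is a known companion of these movements. Ribosomes that carry the tag were isolated with an antibody to it (translating ribosome affinity purification, TRAP), so the values below are levels of ribosome-bound mRNA and not of total mRNA or of protein. RNA of 1 ng per striatum was amplified before hybridization.

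Levels are log2 of the quantile normalized signal of an array probe, so that a difference of 1 stands for a doubled signal. Differences are chronic minus acute LDOPA, with the standard error (SE) of the limma fit and its adjusted p over 32255 probes, two-sided. Counts of genes in lists are of the brightest kept probe of each gene. In the main fit 3.98% of all 23008 genes were higher and 3.96% lower at an unadjusted p under 0.05. Arrays are named by the number of their BeadChip and their position on it, as in 3D. A probe counted as above background where its detection p was under 0.05, which held for 14070 to 17443 probes on the 15 arrays. Their median signals lay between 122 and 165.3. The correlation between 2 arrays was 0.897 in the median of 49 pairs within a group and 0.885 in the median of 56 pairs between the groups. BeadChip 1 held 4 of the 7 acute arrays and none of the chronic arrays, and its lowest signals lay under those of the other BeadChips. The main difference of each called probe is therefore also given with the BeadChip as a block, and within BeadChips 2, 3 and 4. Each of these held 1 acute and 2 or 3 chronic arrays. The labels name no mouse for an array, although the methods state that mice were processed singly, so p-values measure the spread between arrays, which may in part be technical.

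The D1 receptor gene DRD1A was above background on 15 of 15 arrays, with a mean level of 9.38 after acute and 9.20 after chronic LDOPA, against 7.66 and 8.30 in the DRD2 line. The lines overlapped in DRD1A, since chronic arrays 3E (8.12) and 4D (8.32) were below DRD2-line arrays 1A (9.28), 4A (8.5) and 2C (8.42). Array 1A was also above acute arrays 1B (9.18), 1F (9.17), 3B (8.98) and 4B (8.81) and chronic array 3C (8.53). DRD2, the receptor of the indirect pathway, was at 7.42 and 7.38, against 11.25 and 10.72 in the DRD2 line, and here the lines did not overlap, with 7.76 the highest and 9.95 the lowest level on either side. That lowest level was on DRD2 chronic array 1A, which was apart from the other DRD2-line arrays at 11.02 or more. SP9, a transcription factor of indirect pathway MSNs, was at 9.32 and 9.05, against 11.74 and 11.29. ADORA2A, another marker on the indirect pathway list, did not separate the lines, at 7.15 and 7.12 against 7.18 and 7.16. It was near background, above it on 2 of 7 acute and 0 of 8 chronic arrays. Of 9 markers of the direct pathway only PDYN passed the test between treatments. DRD1A differed by -0.18 (SE 0.357, limma adjusted p = 0.944), with its sign turned to 0.16 by median scaling, and TAC1, which encodes substance P, by -0.50 (SE 0.341, adjusted p = 0.768). The Y-linked DDX3Y lay between 10.90 and 12.28 on all 15 arrays. Also Y-linked, EIF2S3Y lay between 6.89 and 8.07 and UTY between 7.07 and 7.47. The X-linked XIST lay between 6.98 and 8.27. No sex was assigned from these values.

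The test called 11 probes of 11 genes in DRD1A EGFP-L10a expressing MSNs. Of 32255 probes, 7 rose after chronic LDOPA (0.0217%) and 4 fell (0.0124%). Those that rose were LOC100048295, HIST1H1C, PDYN, HIST1H2BC, RBP4, TOMM70A and DUSP26. Those that fell were LOC432554, CREB1, UBB and PNCK. At an unadjusted p under 0.05 there were 1190 higher and 1325 lower probes. With the BeadChip as a block, 6 probes rose (0.0186%) and 5 fell (0.0155%), and 4 of the 11 called probes were among them: LOC100048295, PDYN, TOMM70A and DUSP26. Without BeadChip 1 limma called 0 probes, with 2050 at an unadjusted p under 0.05. The count rested on few arrays, since it was 1 without chronic array 3D, 1 without chronic array 3E, and between 4 and 18 without any other array. The scale across arrays moved it most. With each array scaled by its median in place of quantile normalization the test called 247 probes, of which 241 rose and 6 fell, and 7 of the 11 were among them. All 4 called lower probes lost their call under that scaling.

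**Figure D1:**
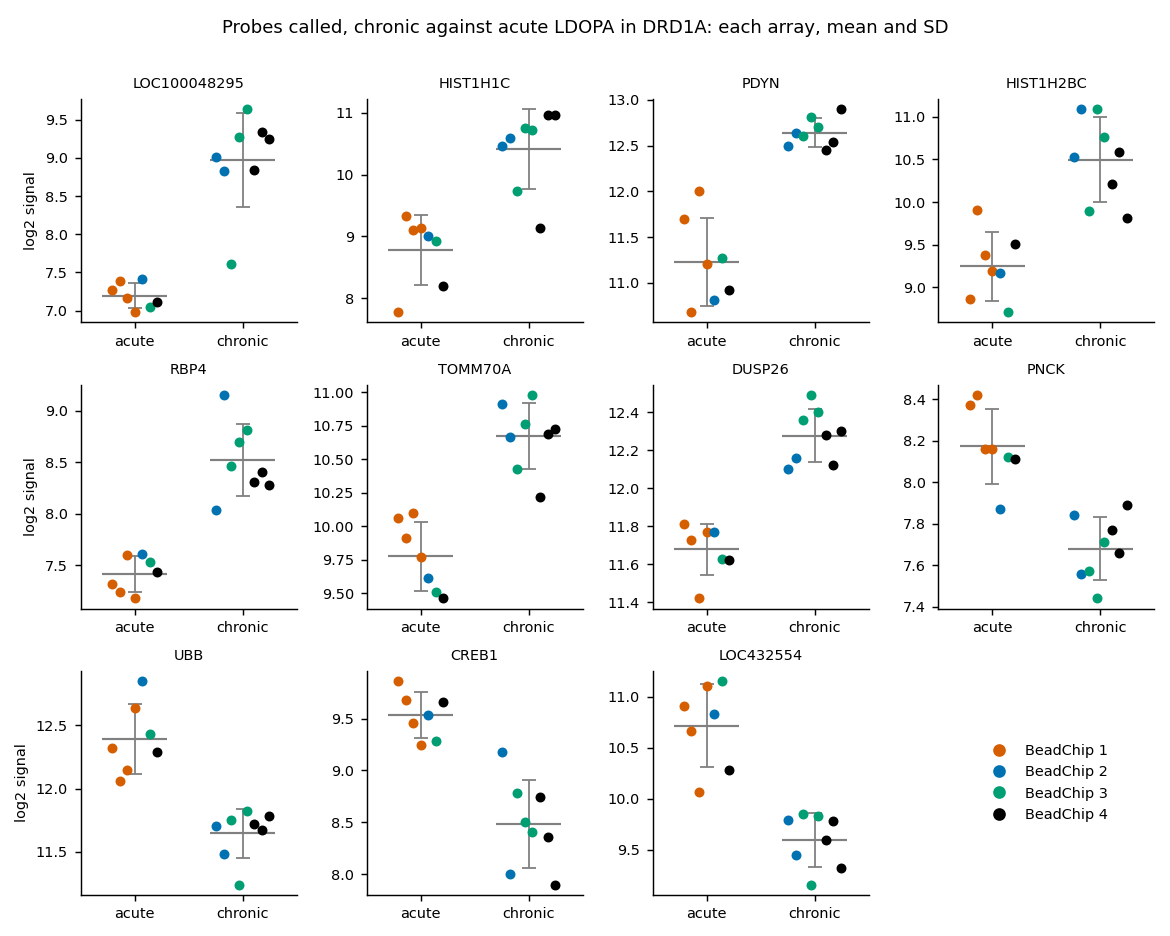
Log2 signal of the 11 called probes on each DRD1A array, by treatment, with the colour giving the BeadChip and the bars the mean and SD (7 acute and 8 chronic arrays). For PDYN the 8 chronic arrays sit between 12.45 and 12.90, above the highest acute array at 12, and for HIST1H1C, HIST1H2BC and PNCK the groups touch or overlap.

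PDYN encodes prodynorphin, the precursor of the opioid peptides dynorphin A and B, which act on the kappa opioid receptor. On the 7 acute arrays its level had a lowest value of 10.68, a median of 11.21 and a highest of 12. On the 8 chronic arrays these were 12.45, 12.62 and 12.90. The groups did not overlap, and the chronic arrays were the closer together, with an SD of 0.15 against 0.48. PDYN rose by 1.41 (SE 0.236, 95% interval 0.92 to 1.91, limma adjusted p = 0.0388), which is 2.66-fold. The highest acute arrays, 1E at 12 and 1B at 11.70, were on BeadChip 1, and so was the lowest, 1C at 10.68. Within BeadChips 2, 3 and 4 the difference was 1.76, 1.43 and 1.71, and with the block it was 1.77 (adjusted p = 0.0346). The adjusted p was 0.138 without BeadChip 1, and it ranged from 0.00821 to 0.0986 as each array was left out, passing in 10 of 23 such fits. A second, dim PDYN probe was higher by 0.36 and did not pass (limma adjusted p = 0.497).

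The 250 bases before the more upstream of the 2 listed starts of PDYN, at chr2:129699939-129700188 on the minus strand of GRCm38.p6 (RefSeq), are shown because PDYN was called in the main fit and with the block. Capitals mark the motif CCAAT, here as its reverse complement, 8 bases before the start.
PDYN: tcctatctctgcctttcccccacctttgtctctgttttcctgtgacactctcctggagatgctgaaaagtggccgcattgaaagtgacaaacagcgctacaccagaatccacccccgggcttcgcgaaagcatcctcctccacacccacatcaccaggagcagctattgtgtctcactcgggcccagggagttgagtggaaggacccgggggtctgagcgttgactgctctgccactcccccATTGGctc
Motifs were searched on both strands of 32851 promoter windows of this length. CCAAT was in 33.8% of them. The TATA box, as TATAAA, was in 12.4%. The core of the cyclic AMP response element, TGACG, was in 17.8%. The AP-1 site, TGACTCA, was in 4.46%. In the PDYN window only CCAAT was found. A match is a description of letters and not a site of binding.

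Of 23 genes for peptide precursors and their processing, 2 were higher and 0 lower at an unadjusted p under 0.05, PDYN and PAM, the enzyme that amidates peptides (0.33, SE 0.156, limma adjusted p = 0.630). PAM passed only under median scaling (0.635, limma adjusted p = 0.0311). The median difference of the 23 was 0.00, against 0.01 over all 23008 genes. Of all genes 3.98% were higher and 3.96% lower at an unadjusted p under 0.05. PENK1, the enkephalin precursor of the indirect pathway, ranged from 7.47 to 8.81 on acute and from 7.84 to 10.09 on chronic arrays, so the groups overlapped. It differed by 0.56 (SE 0.312, adjusted p = 0.698). The kappa receptor gene itself, OPRK1, was above background on 2 of 7 acute and 3 of 8 chronic arrays.

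Single histone genes differed in direction. The linker histone gene HIST1H1C and the core histone gene HIST1H2BC rose, while genes of histones H3 and H4 were lower nearly throughout. HIST1H1C encodes a linker histone of the H1 class, which binds DNA between nucleosomes. Its level ranged from 7.77 to 9.33 on acute arrays, with a median of 9.0, and from 9.13 to 10.97 on chronic arrays, with a median of 10.66. Of 8 chronic arrays 7 were above all acute arrays, and the exception, at 9.13, was on BeadChip 4. HIST1H1C rose by 1.64 (SE 0.281, limma adjusted p = 0.0470), which is 3.11-fold. Within BeadChips 2, 3 and 4 it differed by 1.53, 1.48 and 2.16, and with the block by 1.59 (adjusted p = 0.247). The other HIST1H1C probe gave 1.05 (SE 0.345, adjusted p = 0.399). HIST1H2BC encodes a form of histone H2B. Its level was 8.71 to 9.91 after acute (median 9.19) and 9.81 to 11.09 after chronic LDOPA (median 10.56), so the lowest chronic arrays met the highest acute array. HIST1H2BC rose by 1.25 (SE 0.220, limma adjusted p = 0.0470), and the difference was 1.65, 1.87 and 0.70 within BeadChips 2, 3 and 4. With the block the difference was 1.36 (adjusted p = 0.165), and its other probe gave 0.89 (adjusted p = 0.215). Both calls were lost in 16 of 23 fits that left out 1 array.

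HIST1H1C and HIST1H2BC lie in the same histone cluster on chromosome 13 of GRCm38.p6. HIST1H2BC is at 23684199 to 23692480 and HIST1H1C at 23738807 to 23739531, with 46.3 kb between them, and HIST1H4B, a histone H4 gene, follows 17.4 kb further at 23756937 to 23757386. HIST1H4K lies in the same cluster at 21750145 to 21750553. HIST1H1C, which rose, and HIST1H4B, which was lower, thus lay close together. The windows before the starts of HIST1H1C and of an H4 gene are shown as examples, HIST1H1C at chr13:23738557-23738806 on the plus strand and HIST1H4K at chr13:21750554-21750803 on the minus strand. Capitals mark CCAAT, 54 bases before the start of HIST1H1C, and TATAAA, 16 bases before the start of HIST1H4K.
HIST1H1C: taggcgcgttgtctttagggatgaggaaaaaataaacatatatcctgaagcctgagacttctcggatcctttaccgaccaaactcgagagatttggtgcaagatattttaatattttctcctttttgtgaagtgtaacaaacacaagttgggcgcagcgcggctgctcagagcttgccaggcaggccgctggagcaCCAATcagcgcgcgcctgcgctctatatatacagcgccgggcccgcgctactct
HIST1H4K: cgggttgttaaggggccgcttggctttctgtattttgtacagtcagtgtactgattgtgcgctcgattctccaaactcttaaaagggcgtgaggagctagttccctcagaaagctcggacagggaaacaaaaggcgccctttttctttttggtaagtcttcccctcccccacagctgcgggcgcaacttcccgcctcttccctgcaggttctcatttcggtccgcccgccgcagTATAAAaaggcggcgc
The other motifs searched were not in these windows, and the window of HIST1H4B held none of the 4.

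Histones H3 and H4 form the core pair of the nucleosome. Of 12 histone H4 genes kept, 11 were lower and 0 higher at an unadjusted p under 0.05, and of 10 histone H3 genes 9 were lower and 0 higher, against 3.96% of all genes lower. None passed the adjusted test in the main fit. The median difference was -0.77 for H4 and -0.81 for H3, and under median scaling it was -0.47 and -0.48, with 6 H4 and 4 H3 genes lower at that p, against 1.66% of all genes. The mean level over the H4 genes was 9.61 to 10.15 on acute arrays and 8.68 to 9.41 on chronic arrays, and all 8 chronic arrays were below all acute arrays. Over the H3 genes it was 9.12 to 9.70 and 8.23 to 9.26, with 7 of 8 chronic arrays below. The median difference of the H4 genes was -0.76, -1.02 and -0.72 within BeadChips 2, 3 and 4. That of the H3 genes was -1.02, -0.93 and -0.20, so on BeadChip 4 it was small. These genes have near-identical coding sequences and their probes may bind each other's RNA, so they cannot be counted as independent.

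HIST1H4K was at 9.79 to 10.68 on acute arrays and at 8.92 to 9.84 on chronic arrays, and 7 of 8 chronic arrays were below all acute arrays. HIST1H4K differed by -0.99 in the main fit (SE 0.186, limma adjusted p = 0.0670) and fell by 1.2 with the block (adjusted p = 0.0474). Its second probe gave -0.96 with no overlap of the groups. HIST1H4B was at 8.39 to 9.06 after acute and 7.84 to 8.43 after chronic LDOPA, with 7 of 8 chronic arrays below all acute arrays. HIST1H4B differed by -0.65 (SE 0.128, adjusted p = 0.0807) and fell by 0.88 with the block (limma adjusted p = 0.0136). A second HIST1H4B probe, which is dimmer, differed by -0.29. HIST1H4I (-1.0, SE 0.196), HIST1H4J (-0.67, SE 0.138), HIST1H3D (-1.02, SE 0.240), HIST1H3E (-1.0, SE 0.241), HIST1H3F (-0.81, SE 0.154) and HIST2H3C1 (-0.75, SE 0.184) did not pass, their limma adjusted p lying between 0.0670 and 0.201. Under median scaling the differences were smaller, at -0.60 for HIST1H4K, -0.43 for HIST1H4B, -0.60 for HIST1H4I, -0.19 for HIST1H4J, -0.67 for HIST1H3D, -0.65 for HIST1H3E, -0.71 for HIST1H3F and -0.40 for HIST2H3C1. Of these HIST1H3F alone passed in that setting (limma adjusted p = 0.0349).

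The classes H2A, H2B and H1 were less uniform in sign. Of 23 H2A genes 7 were lower and 0 higher at an unadjusted p under 0.05, beside 3.96% and 3.98% of all genes. Their median of -0.19 moved to 0.01 under median scaling, with 0 lower and 1 higher, beside 1.66% and 9.92%. Among the 7, HIST1H2AN (-0.57, SE 0.179) and HIST1H2AD (-0.52, SE 0.174) had no overlap between the groups, as had 0.0806% of all probes in that direction. Of 14 H2B genes HIST1H2BC alone was higher and 3 were lower, beside the same main-fit shares of all genes. Among the lower were HIST1H2BK (-0.87, SE 0.244) and HIST1H2BE (-0.77, SE 0.238). The median of the H2B genes was -0.21, and -0.01 under median scaling. Of 8 H1 genes HIST1H1C and H1F0 (0.64, SE 0.217) were higher and HIST1H1A (-0.35, SE 0.126) was lower, again beside those shares. H1F0 passed only under median scaling (1.06, limma adjusted p = 0.0437). H1F0 encodes a linker histone found in cells that no longer divide. In the DRD2 line the median difference was -0.74 for H3 and -0.30 for H4 genes, and whether the lines differ in these medians was not tested.

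**Figure D2:**
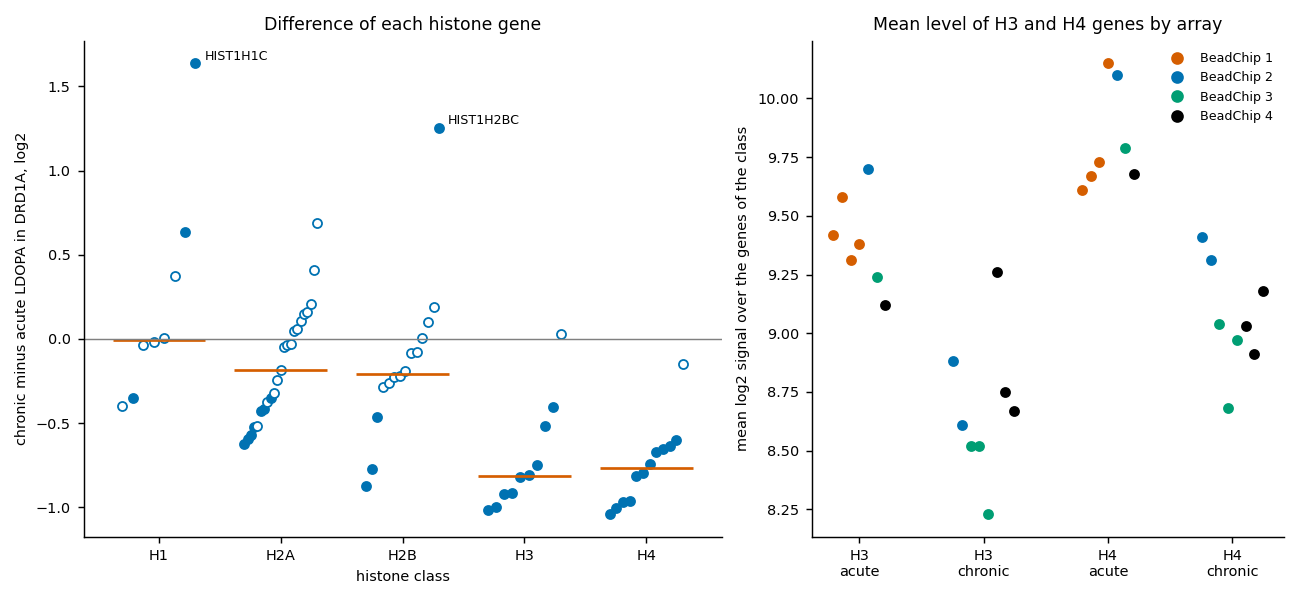
Left, log2 difference (chronic minus acute LDOPA in DRD1A) of the brightest probe of each histone gene by class, filled where the unadjusted p was under 0.05, with the class median as a line. Right, mean log2 signal over the H3 and H4 genes on each array, coloured by BeadChip. The H4 level of all 8 chronic arrays lies below all 7 acute arrays, and the medians of H2A and H2B move to 0.01 and -0.01 under median scaling.

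CREB1 encodes the cyclic AMP response element-binding protein, a transcription factor that the D1 receptor activates through cyclic AMP. The probe that passed was at 9.25 to 9.86 on acute arrays, with a median of 9.53, and at 7.90 to 9.18 on chronic arrays, with a median of 8.46. All chronic arrays were below all acute arrays. CREB1 fell by 1.05 on the log2 scale (SE 0.157, 95% interval -1.38 to -0.72, limma adjusted p = 0.0193) and differed by -0.94, -0.72 and -1.32 within BeadChips 2, 3 and 4. With the block the difference was -1.03 (adjusted p = 0.165), and under median scaling it was -0.75 (adjusted p = 0.102). Without chronic array 3D or 3E the adjusted p was 0.0531 and 0.0549. CREB1 has 6 probes on the array, and the others did not pass. Their differences were -0.32, -0.18, -0.12, 0.05 and 0.28, and the -0.32 alone had an unadjusted p under 0.05. Another probe of similar brightness, at 7.87 to 9.69 on acute and 8.45 to 9.67 on chronic arrays, gave the 0.28 (SE 0.243, limma adjusted p = 0.828). Of 10 genes of the CREB family and its coactivators no other passed at an unadjusted p under 0.05.

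Immediate early genes are induced within minutes of receptor activation, and the last LDOPA dose came 40 min before death in both groups. Of 19 such genes 2 were higher and 1 lower at an unadjusted p under 0.05, beside 3.98% and 3.96% of all genes. None of them passed the adjusted test. FOSB, whose stable product builds up under repeated dopamine receptor stimulation, ranged from 8.69 to 10.32 after acute LDOPA, with a median of 10.02. After chronic LDOPA it ranged from 7.64 to 10.29, with a median of 8.74. The groups overlapped, with 4 of 8 chronic arrays below all acute arrays. FOSB differed by -0.99 (SE 0.357, limma adjusted p = 0.462), and by -1.79, -1.36 and -0.85 within BeadChips 2, 3 and 4. FOS differed by -0.39 (SE 0.308) and ARC by -0.09 (SE 0.355), the latter 0.35 under median scaling. The higher genes were NPTX2, a secreted pentraxin of excitatory synapses (0.82, SE 0.270), and IER5 (0.60, SE 0.214). The median over the list was -0.11 and turned to 0.10 under median scaling.

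TOMM70A encodes a receptor of the outer mitochondrial membrane that takes up precursor proteins. It was at 9.46 to 10.10 on acute arrays, with a median of 9.77, and at 10.22 to 10.98 on chronic arrays, with a median of 10.71. The groups did not overlap. TOMM70A rose by 0.90 (SE 0.133, 95% interval 0.62 to 1.18, limma adjusted p = 0.0193). The difference was 1.18, 1.22 and 1.08 within BeadChips 2, 3 and 4, and 1.12 with the block (adjusted p = 0.00915). It passed in 33 of 36 alternatives, the exceptions being those without chronic array 3D (adjusted p = 0.0531), without 3E (0.0549) and without BeadChip 1 (0.0705). Of 29 genes of mitochondrial protein import no other was called, and the median was 0.03. At an unadjusted p under 0.05, 4 were higher and 2 lower, beside 3.98% and 3.96% of all genes. Under median scaling the median was 0.36, with 10 higher and 0 lower, a setting in which 9.92% of all genes were higher and 1.66% lower at that p. GRPEL1, a cofactor of the matrix chaperone (0.63, SE 0.217), and TIMM23, the channel of the inner membrane (0.42, SE 0.169), were among the higher genes, and TOMM34, a cytosolic cochaperone (-0.59, SE 0.177), among the lower. GRPEL1 passed only under median scaling (0.84, limma adjusted p = 0.0498). Of 77 genes of oxidative phosphorylation 11 were higher and 1 lower at an unadjusted p under 0.05 in the main fit, with a median of 0.04. The shares of all genes in that fit were 3.98% and 3.96%. Under median scaling 42 were higher and 0 lower, with a median of 0.40, again beside 9.92% and 1.66% of all genes.

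UBB encodes a chain of ubiquitin, the tag for degradation of proteins by the proteasome. It was at 12.06 to 12.85 after acute LDOPA, with a median of 12.32, and at 11.24 to 11.82 after chronic LDOPA, with a median of 11.71. The groups did not overlap. UBB fell by 0.75 on the log2 scale (SE 0.124, limma adjusted p = 0.0388), and the difference was -1.26, -0.82 and -0.57 within BeadChips 2, 3 and 4. With the block the difference was -0.90 (adjusted p = 0.0625), and under median scaling it was -0.24 (adjusted p = 0.628). The adjusted p passed in 11 of 23 fits that left out 1 array. Of 40 genes of the proteasome and polyubiquitin list 5 were lower and 1 higher at an unadjusted p under 0.05. Over all genes 3.96% were lower and 3.98% higher. The lower ones included PSMD2 (-0.92, SE 0.280), a subunit of the regulatory particle. PSMD10, a chaperone of that particle, was the higher one (0.91, SE 0.335). The list's median was -0.02, and 0.29 under median scaling. Of 38 heat shock genes 4 were lower and 1 higher, beside the same shares of all genes. The cochaperone DNAJB1 was at 12.11 to 13.49 on acute and at 11.59 to 12.71 on chronic arrays, with 4 of 8 chronic arrays below all acute arrays. DNAJB1 differed by -0.83 (SE 0.203, limma adjusted p = 0.201), and by -0.30 under median scaling. The chaperones HSP90AA1 (-0.42, SE 0.109) and HSPA8 (-0.35, SE 0.133) turned to 0.12 and 0.18 under median scaling.

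DUSP26 encodes a dual-specificity phosphatase of the family that removes phosphate from MAP kinases. Its level was 11.42 to 11.81 on acute arrays, with a median of 11.73, and 12.10 to 12.49 on chronic arrays, with a median of 12.29. The groups did not overlap and their SDs were 0.14 and 0.14. DUSP26 rose by 0.60 (SE 0.0905, limma adjusted p = 0.0193), which is 1.51-fold, and by 0.66 with the block (adjusted p = 0.0346). Under median scaling it rose by 1.1 (adjusted p = 0.000192). Within BeadChips 2, 3 and 4 the difference was 0.36, 0.78 and 0.62. Without chronic array 3D or 3E the adjusted p was 0.0531 and 0.0549. Of 20 DUSP genes kept, DUSP22 was also higher (0.36, SE 0.133) and DUSP6 lower at an unadjusted p under 0.05. Over all genes 3.98% were higher and 3.96% lower at that p. DUSP6, which ERK itself induces, was at 11.63 to 12.71 after acute and 11.24 to 12.14 after chronic LDOPA, with 4 of 8 chronic arrays below all acute arrays. It differed by -0.55 (SE 0.193, limma adjusted p = 0.443), and by -0.04 under median scaling. In the ERK cascade 1 of 23 genes was higher and 1 lower at that p, the kinase BRAF (0.47, SE 0.168) and the feedback inhibitor SPRY2 (-0.61, SE 0.215, and -0.18 under median scaling).

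PNCK encodes a calmodulin-dependent kinase of the CaMKI group, on the X chromosome. It was at 7.87 to 8.42 on acute arrays and at 7.44 to 7.89 on chronic arrays, with 7 of 8 chronic arrays below all acute arrays. PNCK fell by 0.49 on the log2 scale (SE 0.0767, limma adjusted p = 0.0231), and the difference was -0.17, -0.54 and -0.33 within BeadChips 2, 3 and 4. With the block the difference was -0.38 (adjusted p = 0.256), and under median scaling -0.37 (adjusted p = 0.0742). The acute array on BeadChip 2, at 7.87, was the only acute array within the range of the chronic ones. Of 19 genes for calcium and calmodulin kinases 1 was lower (PNCK) and 1 higher (PPP3CB, 0.23, SE 0.110) at an unadjusted p under 0.05. Over all genes 3.96% were lower and 3.98% higher. CAMK4, a calmodulin kinase that phosphorylates CREB, was at 9.52 to 10.99 on acute and 10.31 to 11.41 on chronic arrays, and differed by 0.41 (SE 0.255, limma adjusted p = 0.735). RBP4 encodes the retinol-binding protein of plasma. It was at 7.18 to 7.61 after acute and at 8.04 to 9.15 after chronic LDOPA, with no overlap, and was above background on 6 of 7 acute and 8 of 8 chronic arrays. RBP4 rose by 1.1 (SE 0.192, limma adjusted p = 0.0470), which is 2.14-fold in signals without background subtraction. The difference was 0.98, 1.12 and 0.89 within BeadChips 2, 3 and 4. With the block it was 0.97 (adjusted p = 0.219), and over 36 alternatives it ranged from 0.97 to 2.28. RBP4 passed in 4 of 23 fits that left out 1 array. RBP4 was the only 1 of 15 genes of retinoid handling past an unadjusted p of 0.05.

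The remaining called probes carry names of predicted genes. LOC100048295 had the smallest p of all probes. It was at 6.98 to 7.41 on acute arrays, where 3 of 7 were above background, and at 7.61 to 9.64 on chronic arrays, where 8 of 8 were. The groups did not overlap. LOC100048295 rose by 1.78 (SE 0.221, limma adjusted p = 0.00443), which is 3.42-fold in signals without background subtraction. The difference was 1.51, 1.79 and 2.02 within BeadChips 2, 3 and 4. With the block it was 1.92 (limma adjusted p = 0.0346). LOC100048295 passed in 35 of 36 alternatives, the exception being that without BeadChip 1 (adjusted p = 0.138). Its difference ranged from 1.68 to 3.54 over the 36, so the size of its fold depends on the processing. LOC432554, listed in RefSeq as GM12183 on chromosome 11, was at 10.07 to 11.15 after acute and 9.16 to 9.85 after chronic LDOPA, with no overlap. LOC432554 fell by 1.12 (SE 0.194, limma adjusted p = 0.0470), and the difference was -1.21, -1.53 and -0.72 within BeadChips 2, 3 and 4. With the block it was -1.29 (adjusted p = 0.134), and the adjusted p was 0.111 under median scaling.

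G proteins couple the D1 receptor to adenylyl cyclase. Of 31 genes of dopamine and cyclic AMP signalling 4 were higher and 7 lower at an unadjusted p under 0.05. The shares of all genes were 3.98% and 3.96%. Under median scaling 11 were higher and 0 lower, beside 9.92% and 1.66% of all genes, and the median went from -0.03 to 0.22. GNAL, the stimulatory alpha subunit that D1 receptors use in the striatum, was at 10.91 to 11.74 on acute arrays, with a median of 11.30. On chronic arrays it was at 11.54 to 12.12, with a median of 11.89, and 6 of 8 were above all acute arrays. GNAL differed by 0.54 (SE 0.120, limma adjusted p = 0.142) and passed only under median scaling (1.04, adjusted p = 0.0106). GNG7, the gamma subunit that pairs with it, was higher by 0.49 (SE 0.141, adjusted p = 0.298), and also passed only under median scaling (0.93, adjusted p = 0.0287). The subunits of the opposite sign were GNAO1, an inhibitory alpha subunit, and the beta subunits GNB1 (-0.65, SE 0.176) and GNB5 (-0.48, SE 0.138), at -0.23 and 0.04 under median scaling. GNAO1 was at 11.35 to 11.95 on acute and at 10.72 to 11.34 on chronic arrays, with no overlap. GNAO1 differed by -0.64 in the main fit (SE 0.122, limma adjusted p = 0.0670), fell by 0.85 with the block (adjusted p = 0.0346), and stood at -0.15 under median scaling. A second GNAO1 probe gave -0.26. HTR2A, a serotonin receptor, was at 7.64 to 8.40 after acute and 7.0 to 7.88 after chronic LDOPA, with 6 of 8 chronic arrays below all acute arrays. It differed by -0.58 (SE 0.165, limma adjusted p = 0.303).

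The block for BeadChips added 7 probes to the 4 it shared with the main fit. Besides HIST1H4B, HIST1H4K and GNAO1 these were PLEKHG3, ZC3H7B, PDCD4 and C230011P08RIK. PLEKHG3 was the one with the largest difference. Its level was 9.84 to 11.42 on chronic arrays and 6.96 to 10.71 on acute arrays, whose mean was 10.30 on BeadChip 1 and 8.09 on the others. PLEKHG3 differed by 1.41 in the main fit (SE 0.476, limma adjusted p = 0.421) and rose by 2.61 with the block (adjusted p = 0.0346). Within BeadChips 2, 3 and 4 the difference was 0.98, 3.62 and 3.32. ZC3H7B, a zinc finger protein, differed by 0.70 (SE 0.129, adjusted p = 0.0662) and rose by 0.92 with the block (limma adjusted p = 0.0346). Under median scaling ZC3H7B also passed (0.91, limma adjusted p = 0.00335). PDCD4, an inhibitor of translation initiation, differed by -0.37 (SE 0.0934, adjusted p = 0.215) and fell by 0.58 with the block (adjusted p = 0.0346), but stood at 0.17 under median scaling. C230011P08RIK, a clone-named transcript, was above background on 4 of 7 acute and 0 of 8 chronic arrays, so its difference has no measured size.

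**Figure D3:**
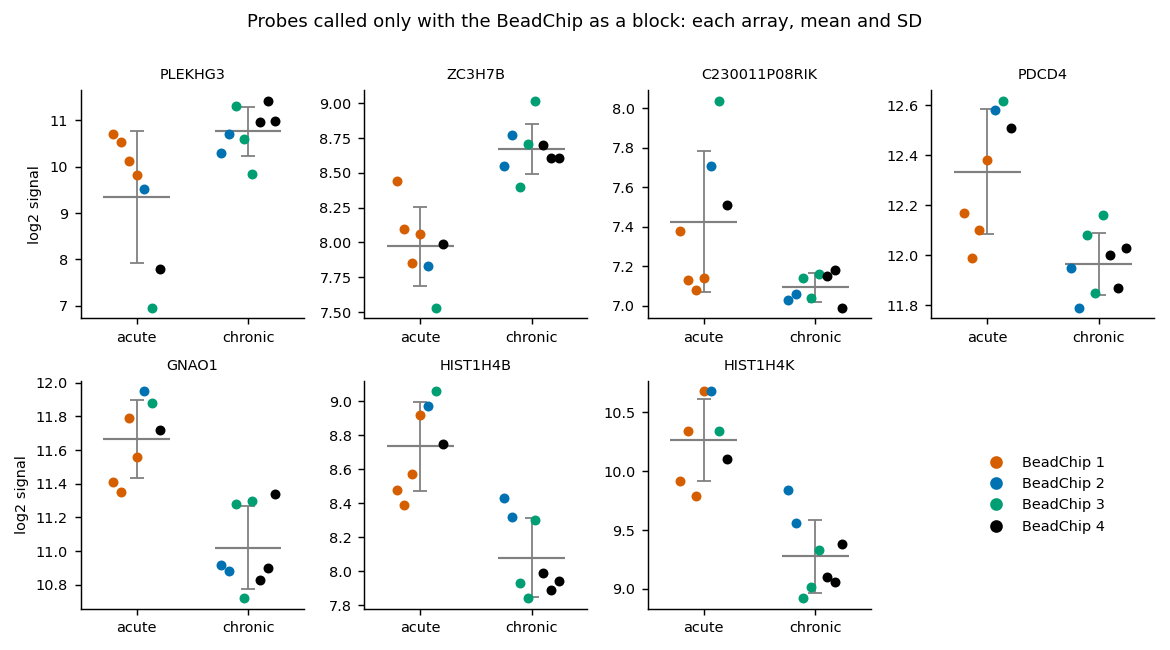
Log2 signal on each DRD1A array of the 7 probes called only with the BeadChip as a block, coloured by BeadChip, with mean and SD (7 acute and 8 chronic arrays). For PLEKHG3 the acute arrays of BeadChip 1 lie near the chronic ones, with a mean of 10.30 against 8.09 for the other acute arrays, and PDCD4 stands at 0.17 under median scaling.

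**Figure D4:**
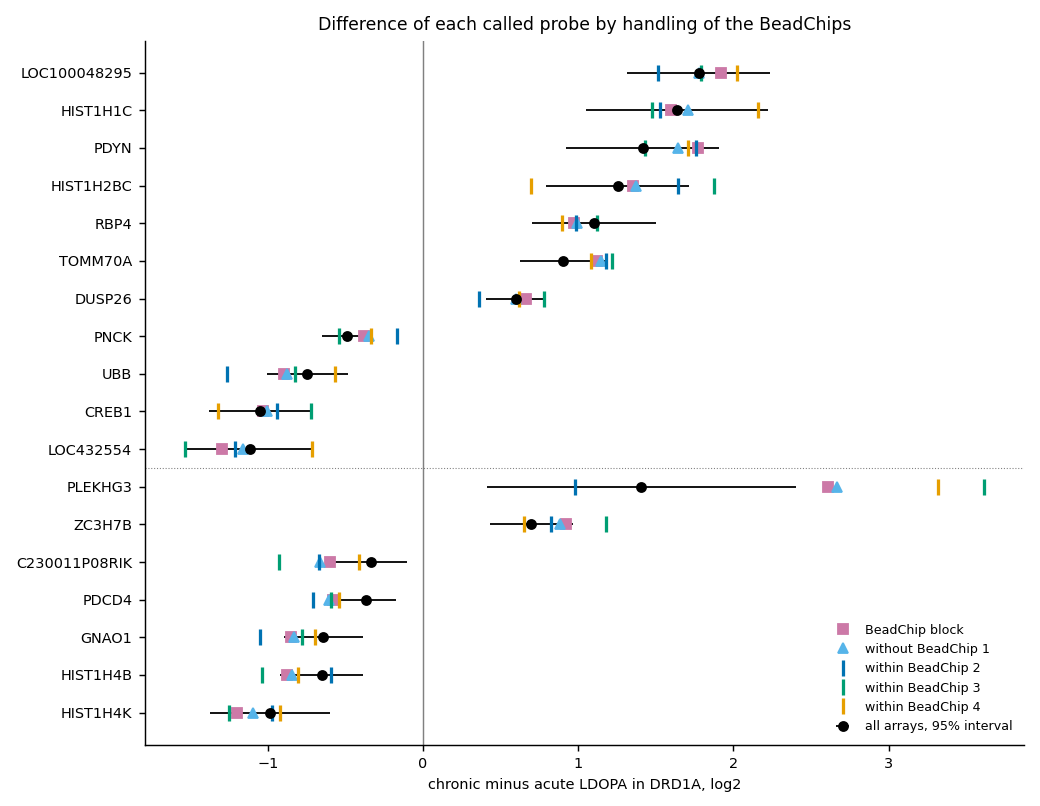
Log2 difference (chronic minus acute LDOPA in DRD1A) of the 11 called probes, above the dotted line, and of the 7 called only with the block, below it. Black points are the main fit with its 95% interval, squares the block, triangles the fit without BeadChip 1 and bars the single BeadChips. The bars of all 18 probes lie on the same side of 0 as their main difference, as do those of 27.5% of all probes kept. Where the groups do not overlap this must be so, and the probes were chosen on these same arrays. Under median scaling PDCD4 changes side.

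Irrespective of the test, all 8 chronic arrays lay above all 7 acute arrays for 18 probes (0.0558% of 32255) and below them for 26 (0.0806%). Under median scaling these counts were 88 and 9. Of these 44 probes 8 were called in the main fit. Of the others that differed by at least 1, those with gene names were INHBA, LYPD1 and RELL2. INHBA, a subunit of the secreted factor activin A, was at 7.16 to 7.95 on acute arrays, with a median of 7.49, and at 8.37 to 10.80 on chronic arrays, with a median of 9.48. Its difference was 2.00 (SE 0.371, limma adjusted p = 0.0662), the chronic arrays being spread widely, and 1.53, 2.17 and 2.15 within BeadChips 2, 3 and 4. Over 36 alternatives the difference of INHBA ranged from 1.82 to 3.32. LYPD1, a membrane protein that binds nicotinic acetylcholine receptors, was at 8.86 to 10.76 and at 10.81 to 11.88. Its difference was 1.54 (SE 0.291, adjusted p = 0.0670), with 1.84, 1.57 and 0.63 within the BeadChips. Another LYPD1 probe had the opposite sign in the comparison of the lines given below. RELL2 was at 7.09 to 7.83 and at 7.87 to 9.92 and differed by 1.26 (SE 0.316, adjusted p = 0.215). INHBA and LYPD1 passed under median scaling (limma adjusted p = 0.00510 and 0.00404).

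The same probes were also read in the DRD2 line. It had n = 4 acute and 3 chronic samples after a near-identical pair of arrays was averaged. The study states that cholinergic interneurons of this line also carry the tag, and carry-over of direct pathway RNA was not tested. BeadChip 1 held 2 DRD2 chronic and 0 DRD2 acute arrays, the reverse of DRD1A. An offset of that BeadChip would enter the difference between the lines from both sides. Except where the block is named, values here are of fits without it. Of the 11 called probes, 8 had their DRD1A sign in the DRD2 line. PDYN was higher there by 2.45 (SE 0.348, limma adjusted p = 0.0308), from a mean of 8.44 to 10.89, so that after chronic LDOPA the DRD2 line stayed under the DRD1A level of 12.64. The change of PDYN in DRD1A minus that in DRD2 was -1.04 (95% interval -1.92 to -0.16, adjusted p = 0.883). CREB1 differed by -0.67 in DRD2 (adjusted p = 0.680). HIST1H1C (-0.34), RBP4 (-0.30) and DUSP26 (-0.18) had the other sign. No probe passed the test of the difference between the lines, in the main fit or with the block, and 1796 probes (5.57%) had an unadjusted p under 0.05. The intervals of that difference were 0.93 to 3.02 for HIST1H1C, 0.44 to 1.12 for DUSP26, 1.33 to 4.10 for INHBA and 1.30 to 3.47 for LYPD1, before any adjustment. The limma adjusted p of these 4 lay between 0.427 and 0.596. Without DRD2 chronic array 1A, a setting added after seeing the data, PDYN was higher in DRD2 by 2.22 and no longer passed (limma adjusted p = 0.142), and the sign was the same in 7 of the 11 called probes. The test of the difference between the lines then called 1 probe, LOC100043822 (-0.63, adjusted p = 0.0143), which is named here after its value was seen. In that setting the difference between the lines was 2.66 for the LYPD1 probe above and -1.23 for another LYPD1 probe. These LYPD1 probes thus disagreed in the sign of the difference between the lines, and in that of the DRD2 difference (-1.12 and 1.55).

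**Figure D5:**
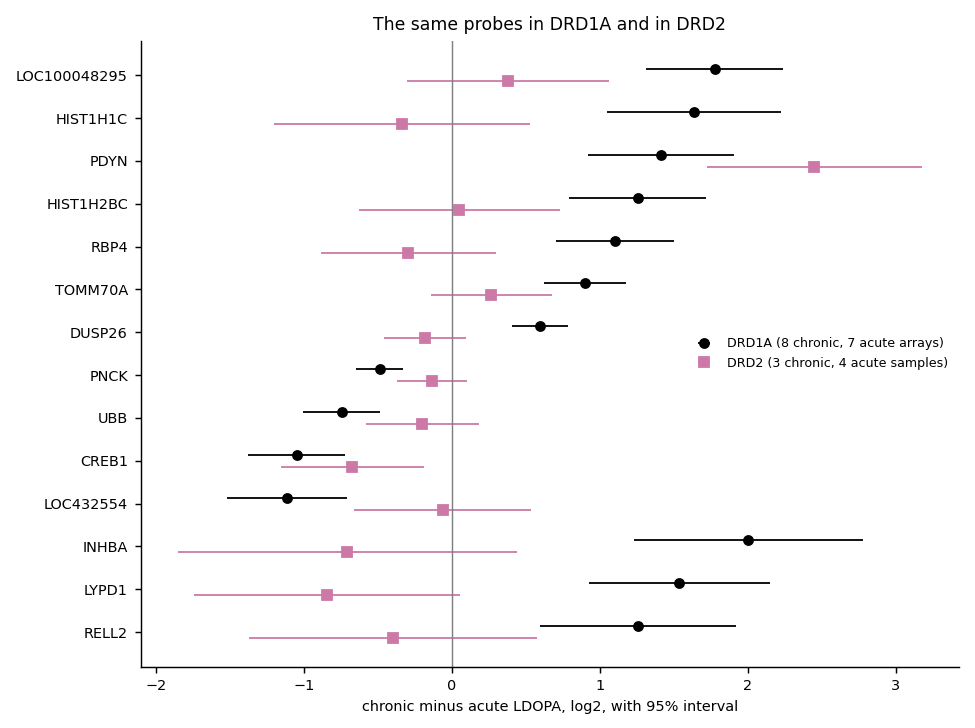
Log2 difference, chronic minus acute LDOPA, with its 95% interval, of the 11 called probes and of INHBA, LYPD1 and RELL2 in DRD1A (8 and 7 arrays, black) and in DRD2 (3 and 4 samples, squares). PDYN is above 0 in both lines, at 1.41 and 2.45, and for HIST1H1C, RBP4 and DUSP26 the DRD2 value has the other sign.

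No marker gene of other cell types passed the adjusted test. Fewer cells of a type and less RNA per cell cannot be told apart in these samples. Of 9 astrocyte genes SLC1A2, a glutamate transporter, was lower at an unadjusted p under 0.05 (-0.95, SE 0.306). Others had the opposite sign without passing, as GFAP (0.45), SLC1A3 (0.47) and the gap junction gene GJA1 (0.45). With the BeadChip as a block GJA1 was the only one past that p (0.91) and SLC1A2 stood at -0.65. The summed signal of the list was 2455 to 4887 on acute and 2507 to 3807 on chronic arrays. The summed signal of 8 oligodendrocyte genes was 3718 to 8540 and 3373 to 9787, and with the BeadChip as a block 4 were higher and 1 lower at an unadjusted p under 0.05, with a median difference of 0.45, beside 3.27% of all genes higher and 4.22% lower. The part of this glial RNA in the differences above was not tested. No gene of the lists for microglia, endothelial cells, cholinergic interneurons, GABAergic interneurons, cortical excitatory neurons or choroid plexus passed at that p in the main fit, and with the block the cortical gene CUX2 was lower (-0.95). ITGAM and C1QC of microglia and FOLR1 of choroid plexus were above background on none of the 15 arrays. Of 15 genes common to all MSNs GNAL and GNG7 were higher, and FOXP2, a transcription factor, was lower at an unadjusted p under 0.05. Over all genes 3.98% were higher and 3.96% lower in that fit. FOXP2 was at 7.60 to 9.61 on acute and 7.14 to 8.22 on chronic arrays (-0.94, SE 0.255, limma adjusted p = 0.266).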

How the data were processed

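Polysomal mRNA of DRD1A and DRD2 EGFP-L10a mice was hybridized to Illumina Mouse WG-6 v2 BeadChips. Per the file headers, the deposited intensities were unlogged probe signals, neither normalized nor background subtracted, with a detection p-value per probe from the authors' software. The deposited series table holds log2 values that the authors had quantile normalized, and it served only as an alternative. Of the report's columns, 4 belong to an array of no listed sample and were not used.

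Signals were quantile normalized over 23 arrays, floored at 1 and taken to log2. A probe was kept where it exceeded its array's 20th percentile on every array of at least 1 of 4 groups (32255 of 45281 probes). A pair of DRD2 chronic arrays, 1D and 3A, correlated at 0.99 against at most 0.928 for other pairs and was averaged, leaving 22 samples. Group means were fitted with limma 3.58.1 (R 4.3.3) with eBayes, and p-values were adjusted by Benjamini and Hochberg over all kept probes, with calls at 0.05. The plan had named the pair as 1D and 4A, from another numbering of the BeadChips. Groups follow the labels. The study's methods give fewer mice for chronic DRD1A and more for acute DRD2 than the labels give arrays, so the size of the chronic group analysed here differs between the sources. Genes named were the called probes, those called with the BeadChip as a block, gene-named non-overlapping probes that differed by at least 1, all probes of PDYN, HIST1H1C, CREB1 and TOMM70A, and of each gene list up to 4 members with the smallest p and some defining members, read by the called or else the brightest probe. The members and lists were chosen with earlier results of these data known. Tests were checked on simulated data. The number of arrays limits the precision. Some members of the gene lists are not reported here.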

Additional observations from a re-analysis of the deposited data

Results flagged for a closer look

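In 7 of 146 groups of arrays tested, 1 array stood apart from the rest of its group, and chance alone flags about 1 in 20. LOC100048295 was at 7.61 on chronic array 3C, with the next at 8.83. On acute array 1E, 1 of the CREB1 probes that did not pass was at 8.43, with the next at 7.46, and ARC was at 9.12, with the next at 10.61. On acute array 1C, HSPA14 was at 8.18 (next 7.85) and NPTX2 at 8.09 (next 7.56). Among chronic arrays, DRD2 was at 7.76 on 2E (next 7.45) and HIST1H1A at 7.41 on 2A (next 7.21).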

How the results depend on the processing

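The 11 called probes kept their sign under all 36 alternatives, but most did not pass in all. The count of calls was 247 (241 higher and 6 lower) with each array scaled by its median, 5 with no filter on dim probes, 21 with only probes detected on at least 7 DRD1A arrays, 5 with a plain linear model, and 0 of BeadChips 2, 3 and 4 only, where limma gave 2050 probes at an unadjusted p under 0.05. With a background correction before quantile normalization the count was 15 (9 higher and 6 lower). Leaving out 1 array gave 1 (chronic 3D or 3E) to 18 (DRD2 chronic 4A) calls. It was 4 without 1F or 2E, 5 without 2A or 2D, 6 without 1B, 3B or 4F, 7 without 2C, 3A or 4C, and 17 without 3C. The count of non-overlapping probes was 97 under median scaling and 598 on BeadChips 2 to 4, both chosen after seeing the data, the latter with fewer arrays to separate. The causes of the other shifts were not tested. No paired analysis was possible because the labels number arrays by BeadChip and position, which pairs no samples across groups. The number of arrays, and signals near background for LOC100048295, RBP4 and C230011P08RIK, limit these values.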
